A study of Homo sapiens with 10 samples.

Results

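The BCL2 family genes BCL2L1, MCL1, BAX, BAK1, BBC3, PMAIP1, BCL2L11, BID, BIK and BAD were examined in HepG2 cells exposed to tunicamycin. They were taken as the rows of the count table whose gene name is one of these 10 symbols, out of 32738 genes in all, and each symbol had 1 row. HepG2 is a human hepatoma line, and tunicamycin blocks the first step of N-linked glycosylation, which causes unfolded proteins to build up in the endoplasmic reticulum (ER). The cells grew in high-glucose medium with 10% fetal bovine serum and either received 2 µg/ml tunicamycin (Tun) in the medium for 17 h or were left untreated (UT). There were 5 libraries per condition, from 5 experiments run on separate days, and all come from a single cell line. Libraries with the same replicate number are taken here as 1 experiment, although the sample titles do not state this pairing. Sequencing covered the 3′ ends of polyadenylated mRNAs. Each transcript then gives about 1 fragment, so counts of different genes are set side by side without dividing by transcript length. Whether reads were assigned equally well to the 3′ end of each gene was not tested, so orders of level are orders of counts.

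Proteins of the BCL2 family decide whether the outer mitochondrial membrane stays intact. Survival members such as BCL-XL (gene BCL2L1) and MCL1 hold back the pore-forming members BAX and BAK1. BH3-only members, among them PUMA (BBC3), NOXA (PMAIP1), BIM (BCL2L11), BID, BIK and BAD, sense stress and either bind the survival members or activate BAX and BAK1 directly. In prolonged ER stress the transcription factor CHOP (DDIT3) is a known regulator of several of these genes, and the comparison of Tun with UT asks whether their mRNAs moved. Counts report mRNA per gene. They do not separate splice forms such as the long and short forms of BCL2L1, MCL1 or BCL2L11, and they do not show protein level, phosphorylation or cleavage, by which BID, BAD and BAX are known to be controlled.

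Library totals ran from 4242538 to 4888292 counts in UT and from 2234682 to 5029864 in Tun, and the lowest totals were those of Tun replicates 5 (2234682) and 4 (3567316). Mitochondrial transcripts took 22.7% to 25.2% of UT counts and 18.3% to 28.8% of Tun counts, with the highest share in Tun replicate 4. All 7 hepatocyte markers (ALB, AFP, APOA1, TTR, SERPINA1, HNF4A and FGB) were detected, with a summed level of 28210 to 45160 normalized counts in UT and 26000 to 33880 in Tun. Most of this sum was ALB, AFP and APOA1. APOA1 (log2 fold change -0.91), TTR (-1.02) and FGB (-0.76) fell in 5 of 5 experiments without overlap. The other markers, ALB (0.04), AFP (-0.16), SERPINA1 (0.08) and HNF4A (0.26), overlapped between UT and Tun, and HNF4A was higher in 5 of 5 experiments. Of the markers of other cell types, PTPRC, CD3E, COL1A2 and DCN had 0 counts in every library. The summed endothelial and fibroblast markers stayed under 25 normalized counts in each library. The highest endothelial value, 24.7, was that of CDH5 in Tun replicate 4, and CDH5 had 0 counts in all other libraries. The endothelial marker PECAM1 had no row under that symbol. The leukocyte sum, 1136 to 1615 in UT and 1229 to 2036 in Tun, was almost all LYZ. Stellate markers, mainly ACTA2, summed to 112 to 169.6 and 60.8 to 185.5. In these bulk samples fewer cells of a type and less RNA per cell cannot be told apart.

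None of the 10 members passed the test of Tun against UT without pairing. All 10 had enough counts to be tested. In edgeR's quasi-likelihood test with Benjamini-Hochberg adjustment over all genes (threshold 0.05), 0 members were called in either direction, and DESeq2 also called 0. These fits do not pair the libraries. With the experiment as a block, edgeR called 2 members higher, MCL1 (adjusted p = 0.0305) and BID (0.0454), and DESeq2 called 0. Over all 12733 genes tested, edgeR with the block called 2499 higher and 2312 lower. Without the block, 34.2% of these genes were called, 17.6% higher and 16.6% lower. At an unadjusted p under 0.05 there were 2 members by either tool, in edgeR MCL1 and BID, against 43.5% of all genes. No member had conditions that did not overlap, whereas 23.5% of all genes did, and only BAX moved in the same direction in all 5 experiments, as 41.2% of genes did. The median size of the members' log2 fold changes, sign left aside, was 0.169, against 0.343 over all genes tested, and the largest was 0.409. With the signs kept, the medians were 0.0039 for the members and -0.00335 for all genes. The 95% interval of the fold change lay inside 2-fold up or down for all 10 members, as it did for 64.4% of all genes.

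In the GENCODE annotation of GRCh38, matched by Ensembl identifier and not the build on which reads were counted, MCL1 lies at chr1:150560895-150579738 (minus strand), BCL2L1 at chr20:31664452-31723989 (minus strand), BAX at chr19:48954815-48961798 (plus strand) and BID at chr22:17734138-17774770 (minus strand). Exons of other genes on either strand overlap those of BCL2L1, MCL1, BAK1, BBC3, BCL2L11 and BAD, and only for BAD do they reach the last 500 bases, where these libraries are read.

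**Figure D1:**
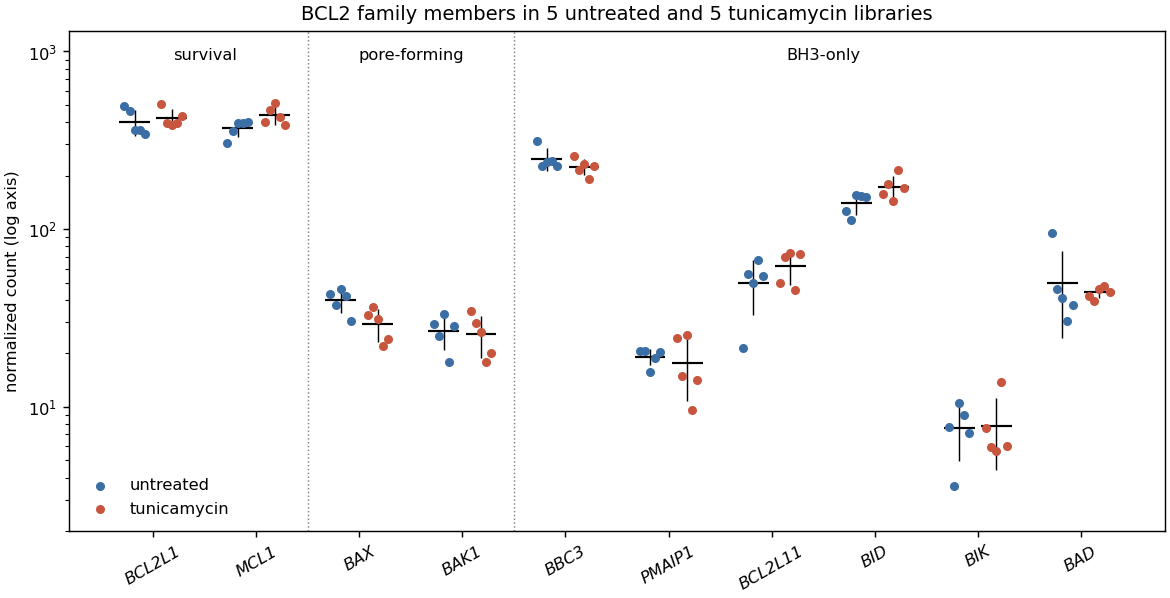
Normalized counts (log axis) of the 10 members, grouped by role, with 1 point per library (UT blue, Tun red, replicates 1 to 5 from left to right), the mean as a bar and the SD as a line (n = 5). The levels span from 3.57 (BIK in UT replicate 2) to 515 (MCL1 in Tun replicate 3), and the points of UT and Tun overlap for every member.

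In untreated cells the survival genes had the highest counts of the members. BCL2L1 (ENSG00000171552) averaged 404 ± 67.6 and MCL1 (ENSG00000143384) 371 ± 42.2 normalized counts (SD, n = 5), and the libraries of these genes overlapped, so that their order was not settled. BBC3 (ENSG00000105327) followed with 249.6 ± 37.2 and BID (ENSG00000015475) with 139.9 ± 19, and all 5 values of each lay above all 5 of the next gene. BAD (ENSG00000002330) with 50.05 ± 25.6, BCL2L11 (ENSG00000153094) with 49.9 ± 17.1, BAX (ENSG00000087088) with 39.9 ± 6.15 and BAK1 (ENSG00000030110) with 26.8 ± 5.76 formed a run in which each overlapped its neighbour. PMAIP1 (ENSG00000141682), at 19.2 ± 2.07, overlapped BAK1 but stood above BIK (ENSG00000100290), the lowest at 7.58 ± 2.59. In Tun the order changed only by swaps between neighbours that overlapped, MCL1 with BCL2L1 and BCL2L11 with BAD. Among all genes tested, BCL2L1 had a higher mean normalized count than 86.7% and BIK than 12.8%.

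The survival gene MCL1 encodes a short-lived protein that restrains BAK1 and BIM. Its normalized counts were 304, 355, 398, 396 and 403 in UT replicates 1 to 5 and 403, 471, 515, 426 and 387 in Tun replicates 1 to 5. Thus 4 of 5 Tun libraries lay above every UT library, and Tun replicate 5, the shallowest, fell inside the UT range. The log2 fold change was 0.25 (standard error 0.10, adjusted p = 0.0668 in edgeR's quasi-likelihood test). The exact permutation test gave p = 0.0556 (two-sided). With the experiment as a block the value was 0.26 and the adjusted p 0.0305, which passes the threshold, but it did not pass in DESeq2 with the same block.

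BCL2L1 encodes BCL-XL, the other survival protein of the set. It measured 491, 462, 360.5, 364 and 342 normalized counts in UT and 508, 396, 384, 397 and 434 in Tun. The highest value of each condition came from experiment 1, and the other 4 Tun values lay inside the UT range. The log2 fold change was 0.07 (95% interval -0.17 to 0.31, adjusted p = 0.675 in edgeR's test), which bounds the change between 0.889-fold and 1.24-fold.

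The pore-forming pair had few counts. BAX, which moves to mitochondria when activated, measured 43.0, 37.5, 46.4, 42.1 and 30.5 normalized counts in UT and 32.9, 36.7, 31.2, 22.0 and 24.2 in Tun, from 12 to 53 counted reads per library. It was lower in Tun in 5 of 5 experiments, and Tun replicates 4 and 5 lay below all UT libraries while the other 3 fell inside their range. The log2 fold change was the largest of the members, -0.41 (standard error 0.20), with an adjusted p of 0.12 in edgeR's test and an exact permutation p of 0.0476 (two-sided, not adjusted). Among the alternatives tried, BAX passed the threshold only with every library thinned down to the smallest total, at -0.68 (adjusted p = 0.0429). Thinning was a single random draw, and how far this value varies between draws was not tested. BAK1, which resides on mitochondria, ranged from 17.9 to 33.2 in UT and from 17.9 to 34.6 in Tun, with a log2 fold change of -0.01 (95% interval -0.51 to 0.49). In both conditions its lowest value was that of experiment 4.

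BBC3 and PMAIP1 encode the BH3-only proteins PUMA and NOXA, of which NOXA mainly binds MCL1. BBC3 measured 315, 226, 238, 242 and 228 normalized counts in UT and 258, 216, 231, 192 and 228 in Tun. UT replicate 1 stood above the other 4, and 3 of the Tun libraries lay inside the UT range. Its log2 fold change was -0.14 (95% interval -0.38 to 0.09, adjusted p = 0.351 in edgeR's test) and was -0.05 without UT replicate 1 (standard error 0.10, adjusted p = 0.774). PMAIP1 measured 20.7, 20.5, 15.7, 18.8 and 20.3 in UT and 24.5, 14.9, 25.5, 9.62 and 14.1 in Tun. The Tun values fell on both sides of the UT range, 2 above it and 3 below, and the spread between Tun libraries was 39.2% of their mean against 10.8% in UT. Its log2 fold change was -0.06 (95% interval -0.63 to 0.52), with 7 to 29 counted reads per library.

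BCL2L11 encodes BIM, a BH3-only protein that binds every survival member and is known as a CHOP target. It measured 21.5, 56.2, 49.9, 67.2 and 54.9 normalized counts in UT and 49.8, 69.5, 73.7, 45.3 and 72.6 in Tun. UT replicate 1 was the lowest of all 10 libraries, and Tun replicates 2, 3 and 5 exceeded every UT library. The log2 fold change was 0.31 (95% interval -0.18 to 0.80, adjusted p = 0.323 in edgeR's test). Without UT replicate 1 it was 0.12, and within single experiments it ran from -0.56 to 1.19.

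BID links death receptors to mitochondria once it has been cut by caspase 8. It measured 127, 112, 155, 153 and 151 normalized counts in UT and 158, 179.6, 145, 214 and 172 in Tun. Tun exceeded all UT libraries in replicates 1, 2, 4 and 5, and replicate 3 fell inside the UT range. The log2 fold change was 0.31 (standard error 0.13, adjusted p = 0.0747 in edgeR's test, exact permutation p = 0.0556). With the experiment as a block it was 0.31 with an adjusted p of 0.0454, while DESeq2 with the block did not call it. Leaving out both libraries of experiment 1, no member was called with the block.

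BAD, whose protein is held in the cytosol by 14-3-3 proteins when phosphorylated, measured 94.7, 46.4, 41.1, 30.5 and 37.6 normalized counts in UT and 42.2, 39.7, 46.3, 48.1 and 44.4 in Tun. A single library, UT replicate 1, was higher than all others, and the remaining 9 lay between 30.5 and 48.1. Its log2 fold change of -0.19 (95% interval -0.72 to 0.33) changed sign without that library, to 0.18, and neither value passed the test. Exons of GPR137 on the opposite strand cover part of the last 500 bases of BAD in the GENCODE annotation of GRCh38, and whether counting used the strand is not given in the sources used here. BIK, a BH3-only protein of the ER membrane, had 3 to 12 counted reads per library, a range of 3.57 to 10.5 normalized counts in UT and 5.67 to 13.7 in Tun, and a log2 fold change of 0.02 (95% interval -0.84 to 0.87). For BIK this interval reaches from 0.56-fold to 1.83-fold, the widest of the members.

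**Figure D2:**
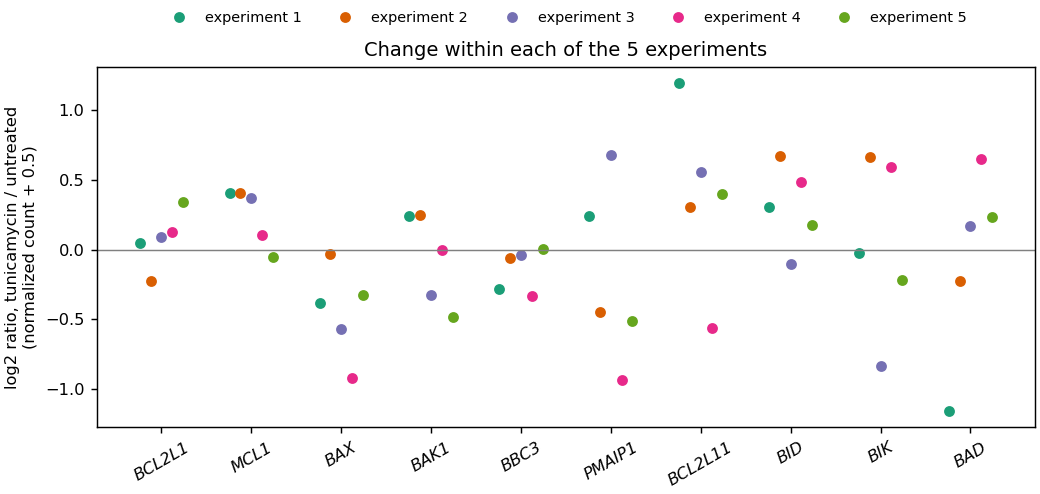
Log2 ratio of Tun to UT (normalized counts plus 0.5) within each of the 5 experiments, coloured by experiment, for the 10 members. All 5 ratios of BAX lie below 0, from -0.92 to -0.03, while the extreme ratios of BCL2L11 (1.19) and BAD (-1.16) both belong to experiment 1.

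The members can also be described by the share of their summed counts that each class took in a library. BCL2L1 and MCL1 together took 57.1% ± 2.26 of the members' counts in UT and 59.6% ± 0.757 in Tun (SD, n = 5). The 6 BH3-only genes took 38.0% ± 2.14 and 36.6% ± 1.29. BAX and BAK1 took 4.91% ± 0.591, from 4.48% to 5.91%, and 3.79% ± 0.751, from 2.87% to 4.56%. Tun replicates 4 and 5, the shallow libraries, had the lowest share of the pore-forming pair. The ranges of the conditions overlapped for each of the 3 classes. These shares are descriptions with no test, and the totals behind them ran from 695 to 1798 counts per library.

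**Figure D3:**
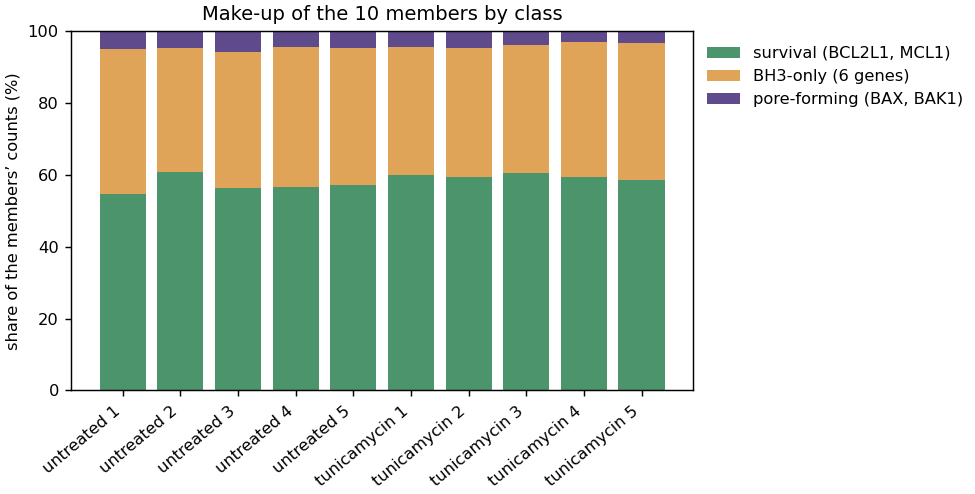
Share of the summed counts of the 10 members (percent, stacked to 100) taken by survival, BH3-only and pore-forming genes in each library. The survival share lies between 54.6% and 60.8% in UT and between 58.6% and 60.6% in Tun.

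Other genes of the BCL2 family were read in the same fit. Of 16 listed, 12 could be tested, and 2 were called higher and 2 lower, 33.3% of those tested, which is near the share over all genes. Their median log2 fold change was 0.16. Exons of BCL2L2-PABPN1 on the same strand and of HOMEZ and PPP1R3E on the opposite strand overlap those of BCL2L2. They do not reach its last 500 bases in the GENCODE annotation of GRCh38. BCL2L2, which encodes the survival protein BCL-W, measured 18.9, 19.6, 10.5, 25.1 and 22.4 normalized counts in UT and 24.5, 33.7, 35.0, 113 and 88.8 in Tun. It was higher in 5 of 5 experiments, at 1.52 on the log2 scale (standard error 0.37, adjusted p = 0.00375 in edgeR's test), and Tun replicates 4 and 5 stood far above the rest. In counted reads, before any scaling, these libraries had 82 and 44, and Tun replicate 3 came next with 37. Without Tun replicates 4 and 5, an alternative added after the data were seen, the log2 fold change was 0.69 and the call was lost (adjusted p = 0.0814). BCL2L13, an outer mitochondrial membrane protein that acts in mitophagy, was higher without overlap of the conditions, with 58.6 ± 8.43 in UT and 89.9 ± 10.9 in Tun (log2 fold change 0.63, adjusted p = 0.00227 in edgeR's test, 0.101 after thinning).

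BOK, a BAX-like pore-forming protein, fell from 65.3 ± 10.2 to 44.7 ± 6.14 normalized counts (log2 fold change -0.56, adjusted p = 0.0122 in edgeR's test), in 5 of 5 experiments. The call of BOK was lost after thinning (adjusted p = 0.0631), in DESeq2 with the block (0.0544) and without experiment 1 (0.0765). BCL2L12 fell from 339.5 ± 32.9 to 230.0 ± 17 (log2 fold change -0.57), also in 5 of 5 experiments. BCL2 itself had few counts, with 12.6 ± 4.54 in UT and 9.8 ± 2.06 in Tun, and was not called (log2 fold change -0.33, 95% interval -1.06 to 0.40), nor was BMF at 7.55 ± 3.44 and 9.92 ± 5.4.

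BCL2A1, a survival gene known to be induced by NF-κB, did not pass the filter on low counts. Without that filter BCL2A1 was called higher in edgeR's test (adjusted p = 0.000187). The genes called higher in the list of other family genes were then 3, namely BCL2A1, BCL2L2 and BCL2L13. Its counted reads were 0, 1, 0, 0 and 0 in UT replicates 1 to 5 and 2, 1, 1, 21 and 20 in Tun replicates 1 to 5. Nearly all reads thus came from Tun replicates 4 and 5, the same libraries in which BCL2L2 was highest. HRK had 0 to 5 reads per library, and BCL2L14 was too low to be tested. BCL2L10 had 0 counts in every library, so that its expected count summed over all libraries may still be up to 3.

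**Figure D4:**
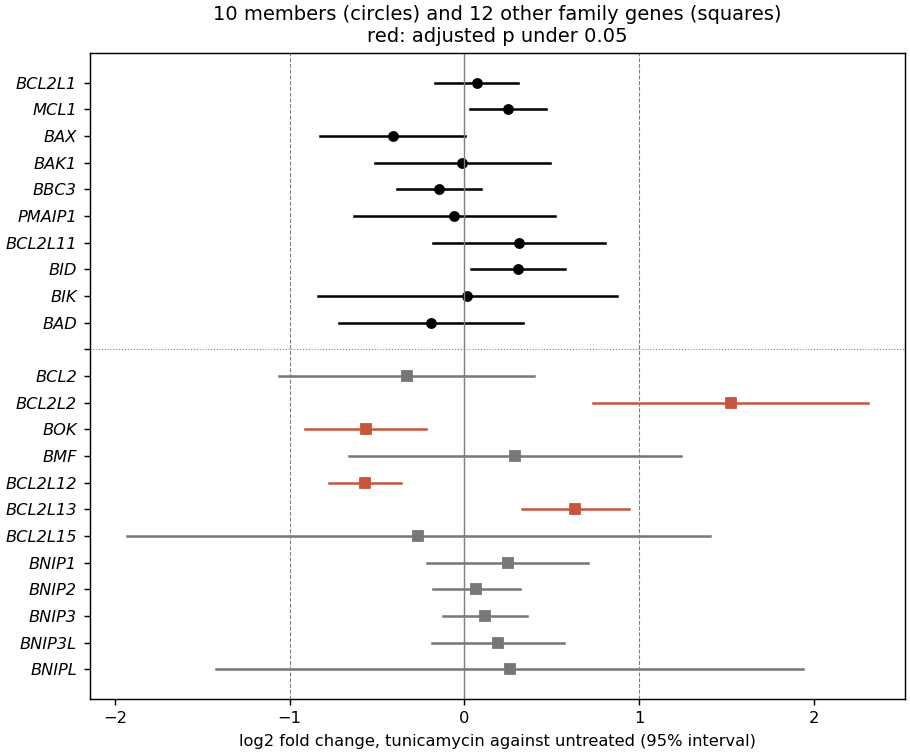
Log2 fold changes of Tun against UT with 95% intervals for the 10 members (circles) and the 12 other family genes that could be tested (squares), red where the adjusted p is under 0.05 and with dashed lines at 2-fold. The members all sit between the dashed lines, and the called genes BCL2L2, BCL2L13, BOK and BCL2L12 are outside the 10.

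Downstream of the members, mitochondria that lose their outer membrane release cytochrome c, which assembles with APAF1 and caspase 9. Of the 23 tested genes of this step, 3 were called higher and 6 lower in edgeR's test, 39.1% of the list beside 34.2% of all genes, a share near the background, with a median log2 fold change of 0.14. With the experiment as a block the higher count was 5, as CASP9 and VDAC2 were added, beside 2499 of all 12733 genes. CYCS, which encodes cytochrome c, was higher without overlap, from 711 ± 47.7 to 1316 ± 109.6 normalized counts (log2 fold change 0.89, adjusted p = 2.04e-07). XIAP, a caspase inhibitor, rose from 223 ± 23.2 to 305 ± 8.86 (log2 fold change 0.45), and HTRA2, a mitochondrial protease that counters such inhibitors once released, had a log2 fold change of 0.66, with exons of LOXL3 on the opposite strand over its last 500 bases. BIRC5, survivin, which also serves in cell division, fell from 591 ± 71.8 to 412 ± 24.2 (log2 fold change -0.52). The other 5 called lower were CASP6 (-0.50), an executioner caspase, ENDOG (-0.44), a mitochondrial nuclease, VDAC3 (-0.41), an outer membrane channel, DNM1L (-0.36), which divides mitochondria, and BIRC6 (-0.35), an inhibitor of apoptosis. CASP6, ENDOG and APAF1 also have opposite-strand exons over their last 500 bases. APAF1 was not called, at 42.3 ± 10.7 in UT and 31.3 ± 6.1 in Tun (log2 fold change -0.44, adjusted p = 0.122). CASP9, at a log2 fold change of 0.93, was not called in edgeR's test (adjusted p = 0.0616). It was called by DESeq2 (0.0457), with the block by edgeR (0.0166) and DESeq2 (0.0244), without the filter (0.0421), after thinning (0.0227) and without UT replicate 4 (0.0279). UT replicate 1 of CASP9 had 2 counted reads, and without both libraries of experiment 1 the block did not call it (0.0762).

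Genes that act upstream of the family were read in the same fit. Of 37 tested, 17 were called higher and 6 lower in edgeR's test. This was 62.2% of the list, beside 34.2% of all genes (17.6% higher and 16.6% lower), and the median log2 fold change was 0.18. The list was chosen with earlier results of these data known, so its share is a description and not a test. DDIT3, which encodes CHOP, measured 169.6, 146, 186, 153 and 137 normalized counts in UT and 446, 493, 384, 346 and 452 in Tun, with no overlap. Its log2 fold change was 1.42 (standard error 0.11, adjusted p = 2.1e-08 in edgeR's test). Exons of MARS1 on the opposite strand reach the last 500 bases of DDIT3, and a transcript on its own strand shares exons with it, so reads of these genes may be mixed into its level. ATF4, a transcription factor that is controlled mainly at translation, was not called at the mRNA level (log2 fold change -0.03, adjusted p = 0.824 in edgeR's test). TMBIM6, the ER protein BAX inhibitor 1, had a log2 fold change of 0.18 and was not called by edgeR (adjusted p = 0.0903) but was by DESeq2 (0.0442).

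Of the upstream genes called with more than a 2-fold change, PPP1R15A, which encodes a subunit that reverses eIF2α phosphorylation, rose from 58.0 ± 11.9 to 166 ± 5.33 normalized counts (log2 fold change 1.52). ERN1, the ER stress sensor IRE1, rose (1.34), as did MYC (2.07), PIM1 (1.35), AKT1 (1.14) and ITPR1 (1.07), an ER calcium channel. AKT1 and PIM1, whose kinases are known to phosphorylate BAD, were uneven between libraries. AKT1 ranged from 51.6 to 176 in UT and from 169.8 to 393 in Tun, and PIM1 lost its call without Tun replicate 4 (log2 fold change 1.16, adjusted p = 0.0505) and without both Tun replicates 4 and 5 (0.85, adjusted p = 0.176). TP73 (-1.59), E2F1 (-1.26), CASP2 (-1.10) and XBP1 (-1.01) fell. TP73 had 22 reads or fewer per library and an antisense gene over its 3′ end, and AKT1 also has an opposite-strand transcript there.

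**Figure D5:**
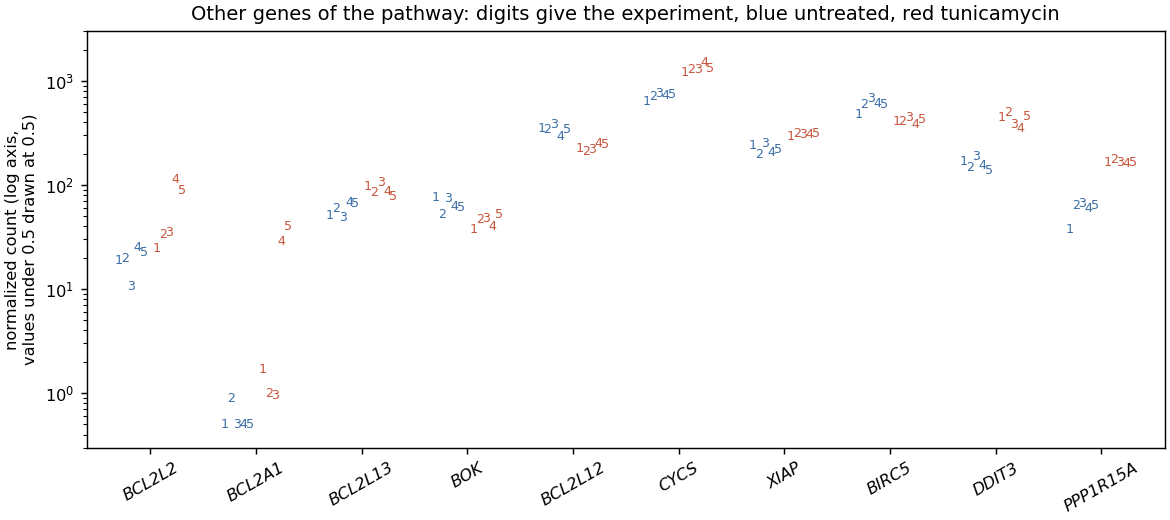
Normalized counts (log axis) of 10 other genes of the pathway, drawn as the number of the experiment, in blue for UT and red for Tun, with values under 0.5 placed at 0.5. DDIT3, PPP1R15A, CYCS, XIAP, BIRC5, BCL2L12 and BCL2L13 show no overlap between conditions, and in BCL2L2 and BCL2A1 the digits 4 and 5 of Tun stand apart from 1, 2 and 3.

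Promoter sequences from RefSeq (GRCh38.p14), from 250 bases before to 50 bases after each listed start, were found for 8 of the 10 members. Some had more than 1 start, and MCL1 and BIK had no sequence and were not searched. The sequences found were searched on both strands for TGATGNAA, the composite site of ATF4 and C/EBP factors, for the CRE TGACGTCA, for the AP-1 site TGANTCA and for the ER stress element ERSE (CCAAT and CCACG with 9 bases between them). These motifs occur in 3.62%, 1.85%, 7.71% and 0.0769% of all 35116 promoter windows. A single match was found among the member windows, an AP-1 sequence in that of BBC3, 113 bases before the start. Each motif was counted separately where motifs overlap. The windows printed here, chosen after the matches were seen, show this match beside those of BCL2A1, whose reads came from Tun libraries 4 and 5, and of PPP1R15A and XBP1, called higher and lower. Matches in windows of other listed genes, among them BCL2L13, HRK and DDIT3, are not printed. Capitals mark the motif, and the strand is that of the gene. BBC3 lies on the minus strand at chr19:47232754-47232800, BCL2A1 on the minus strand at chr15:79971232-79971279, PPP1R15A on the plus strand at chr19:48872343-48872390 and XBP1 on the minus strand at chr22:28800583-28800641.
BBC3, AP-1: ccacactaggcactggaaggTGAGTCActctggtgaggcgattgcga
BCL2A1, composite site: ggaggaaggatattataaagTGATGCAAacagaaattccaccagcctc
PPP1R15A, CRE: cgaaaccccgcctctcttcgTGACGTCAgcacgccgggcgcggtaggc
XBP1, ERSE: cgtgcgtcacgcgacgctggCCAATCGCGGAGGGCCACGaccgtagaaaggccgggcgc
A match is a run of letters and not a measured site, and a window without a match says nothing about more distant sequence.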

How the data were processed

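HepG2 cells, UT or Tun (5 libraries each), were profiled by 3′ mRNA sequencing. The authors ran nf-core RNA-Seq, release 1.4.2, at its defaults on hg19 with Ensembl 87 transcripts and deposited raw counts per gene; the aligner, counter and strand setting are not given in the sources used here. Low genes were removed with filterByExpr (minimum count 2, minimum total 10), which left 12733 genes. Counts were scaled by TMM and tested with edgeR 4.0.16 (R 4.3.3, quasi-likelihood, condition only), with Benjamini-Hochberg adjustment at 0.05. Standard errors are the log2 fold change divided by the square root of F, and 95% intervals follow from them. Normalized counts are counts over the scaled library size, times its mean. The exact permutation test used log2 values with a pseudocount of 0.5 and all 252 assignments, whose smallest p is 0.00794.

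The replicate numbers were taken to pair the libraries, since the series text states separate days. Sample titles give only the condition and replicate number, so this pairing is an assumption. The block and all counts of experiments rest on it. For replicates 1 to 5 the paired deviations correlated at 0.317, 0.0171, 0.0391, 0.122 and 0.0864 across 10736 genes. The UT library correlated best with the Tun library of its own number for replicates 1 and 4, and not for 2, 3 and 5. Whether experiments used separate cultures beyond the day is not stated.

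Alternatives were DESeq2 1.42.0, its size factors, library size only, no filter, default filter minimums, the replicate block, thinning and leaving out each library. Thinning used a single random draw, so calls gained or lost after it rest on that draw. On data drawn from the real means, with only a small part of the genes changed, edgeR recovered 75.3% of the 89 genes changed 2-fold among 12561 tested. In the real data 34.2% of genes were called and every member changed less than 2-fold, so this rate does not carry over to the members. Members and lists were chosen with earlier results of these data known. The named genes are the members, and from other lists core genes, genes called with more than a 2-fold change and called family genes. HTRA2, CASP6, ENDOG, VDAC3, DNM1L, BIRC6, BCL2L10, BCL2L14, VDAC2 and the single values of hepatocyte markers were added after their values were seen. A gene of the upstream list is counted there but not reported here. Gene positions were matched by Ensembl identifier to GENCODE on GRCh38, and no hg19 coordinate is given.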

Additional observations from a re-analysis of the deposited data

Results flagged for a closer look

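In 7 of 84 groups of 5 values, 1 library was flagged as standing apart from its 4 fellows, at a nominal rate of about 1 in 20, or 4.2. For the members these were BBC3 in UT replicate 1, at 315 normalized counts against 226 to 242 in the others, BAD in UT replicate 1, at 94.7 against 30.5 to 46.4, and BIK in Tun replicate 4, at 13.7 against 5.67 to 7.6. The other values were 0.892 for BCL2A1 in UT replicate 2 (0 in the others), 37.0 for PPP1R15A in UT replicate 1 (60.0 to 66.5), 28.9 for ERN1 in UT replicate 3 (54.4 to 62.0) and 4329 for TMBIM6 in Tun replicate 4 (3767 to 3929). The nominal rate holds for independent, normally spread values. These groups share libraries and include counts near 0, such as the single read of BCL2A1, so 7 was not tested against 4.2. The cause of the flags was not tested.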

How the results depend on the processing

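Over the alternatives, no member passed the threshold except MCL1, BID and BAX. Among all genes, 1774 to 2499 were called higher and 1667 to 2570 lower, depending on the alternative. With the replicate block, which pairs libraries of the same number, MCL1 (0.26, adjusted p = 0.0305) and BID (0.31, adjusted p = 0.0454) were called in edgeR's test. Thus 2 members and 5 caspase activation genes were called higher, beside 2499 of all 12733 genes tested. DESeq2 with the block called 0 members, and 1 other family gene lower, beside 2042 genes higher and 1836 lower in all. Thinning gave BAX -0.68, PMAIP1 0.016 and BIK -0.20, with 1 member called lower and 1 other family gene in each direction. Of 12171 genes tested after thinning, 1967 were called higher and 1799 lower. With library size only, BCL2L1 was -0.0095 and BIK -0.067, the median of all genes was -0.0829, and 40.8% of called genes were higher instead of 51.4%. The default filter minimums left BIK untested.

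Leaving out 1 library gave log2 fold changes of -0.0079 to 0.15 for BCL2L1, 0.19 to 0.29 for MCL1, -0.15 to 0.10 for BAK1, -0.22 to 0.091 for PMAIP1, -0.20 to -0.05 for BBC3, 0.23 to 0.37 for BID, -0.24 to 0.17 for BIK and -0.32 to 0.18 for BAD. From 0 to 1 members and 3 to 5 caspase activation genes were then called higher, beside 1956 to 2317 of all genes. MCL1 passed without Tun replicate 1 (adjusted p = 0.0464) or 5 (0.0486), and BID without Tun replicate 3 (0.0474).

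Further alternatives were added after the data were seen. Without both libraries of experiment 1, BAD was 0.20 and 1 other family gene was called lower, and the same values, 0.20 and 1, came with the block. Without Tun replicates 4 and 5, MCL1 was 0.33 (adjusted p = 0.0431), BAK1 0.19, PMAIP1 0.18 and BIK -0.23, with 1 member and 1 other family gene called higher and 3 caspase activation genes lower. The cause of these changes was not tested. Counts of 3 to 53 reads per library limit BIK, PMAIP1, BAK1 and BAX.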
